A study of Homo sapiens with 12 samples.

Results

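The genes around MYC on the long arm of chromosome 8, in bands q23 to q24, were followed in an epirubicin-resistant breast cancer line. A list of 46 genes was used, chosen by name and position, with earlier results of these data known. All 46 were matched by Ensembl identifier among the 58735 genes of each of the 2 expression tables. They run from UTP23 to PTK2 over 24.24 Mb (GRCh38, chromosome 8, positions 116766503 to 141002216). Of these genes, 31 lie on the centromere side of MYC and 14 on the telomere side. A total of 45 are protein coding and 1, PVT1, is a long non-coding RNA. The interval holds 246 other annotated genes.

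SK-BR-3 is an established HER2-amplified breast cancer cell line, known for a gain of 8q24. MYC encodes a transcription factor that drives ribosome production, metabolism and cell cycle entry, and it is often gained together with the neighbouring PVT1. The other genes of the region serve unrelated tasks, among them cohesin (RAD21), chromatin (ATAD2), mitochondrial translation (MRPL13), mTOR restraint (DEPTOR) and focal adhesion (PTK2), but a gain or loss of the segment alters their copy number together. Gene copy number was not measured in these samples, so the values below are RNA levels only.

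The study compared SK-BR-3 with SK/EPI, its derivative selected over a long, stepwise exposure to rising epirubicin. In a second experiment, BCRP was silenced in SK/EPI by siRNA transfection for 48 h (SK/EPI-siBCRP), with a non-targeting control siRNA for reference (SK/EPI-siNC). BCRP is the drug efflux transporter encoded by ABCG2. Each of the 4 groups held 3 RNA-seq libraries, and all 12 derive from the single line SK-BR-3. SK/EPI is 1 selected population, so selection by the drug and drift in culture cannot be told apart. The sources do not say whether the 3 libraries of a group came from separate cultures, so p-values measure only the spread between these libraries.

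Levels are FPKM, read counts scaled to exon length and to the size of the library, and are given as mean ± SD of 3 libraries. Fold changes are differences of the mean log2(FPKM + 1), a scale that understates changes of low genes, and are given with their standard error (SE). A gene was called when limma gave a Benjamini-Hochberg adjusted p under 0.05 over all tested genes of its table. Each table was fitted alone, because nothing says that both were normalized together. Of the 46 genes, 45 passed the filter on low reads in both tables. The exception was HAS2, a hyaluronan synthase, which had 0 reads in 11 libraries and 1 read in an SK/EPI-siBCRP library.

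Between 15830381 and 20545811 reads per library fell on genes. ABCG2 was at 0.0497 ± 0.0266 FPKM in SK-BR-3, 34.1 ± 1.61 in SK/EPI, 33.0 ± 0.673 in SK/EPI-siNC and 3.08 ± 0.345 in SK/EPI-siBCRP. The summed FPKM of 10 markers of SK-BR-3 ran from 3785 to 3994 in SK-BR-3 and from 2237 to 2356 in SK/EPI. Of the 10, ERBB2 (658.9 and 133.1 FPKM), GRB7, STARD3, KRT19, TFAP2A (14.8 and 0.272 FPKM), TFAP2B and SPDEF (121.5 and 3.19 FPKM) were lower in SK/EPI than in SK-BR-3, KRT8 (764.8 and 901.6 FPKM) and KRT18 (357.8 and 600.6 FPKM) were higher, and EPCAM (86.3 and 91.7 FPKM) was not called. TFAP2B was at most 0.198 FPKM in every library. The sums were 2641 to 2690 in SK/EPI-siNC and 2207 to 2249 in SK/EPI-siBCRP. For 5 fibroblast markers the sum was at most 1.64 in every library. The 4 leukocyte markers summed to 1.39 to 1.77 in SK-BR-3, 27.1 to 28.9 in SK/EPI, 7.26 to 8.27 in SK/EPI-siNC and 8.74 to 9.6 in SK/EPI-siBCRP, nearly all of it CD14, while PTPRC was at or under 0.0669 in every library. The 3 endothelial markers summed to 6.67 to 6.99, 27.0 to 28.1, 13.9 to 14.1 and 22.3 to 22.5 in the same order, nearly all of it CDH5, with PECAM1 and VWF at most 0.229. The part of these markers in the results was not tested.

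The genes around MYC were abundant in SK-BR-3. Their median was 10.7 FPKM there, against 3.68 FPKM for all tested genes, and 35 of the 45 were above that median. In SK/EPI the median of the genes was 8.14 FPKM, against 3.97 FPKM for all tested genes. The highest levels in SK-BR-3 belonged to NDUFB9, a subunit of respiratory complex I, at 213 ± 2.37 FPKM, to ATAD2, a bromodomain ATPase of chromatin, at 171 ± 6.02, and to RAD21, the cleavable subunit of cohesin, at 115 ± 4.90. No library of these 3 genes overlapped with a library of the next gene in the order. MYC came 9th, at 57.1 ± 0.0744 FPKM, below ZHX1 at 65.7 ± 3.72 and NDRG1 at 68.0 ± 0.511, whose libraries overlapped with each other. In SK/EPI the order changed: MYC came first at 168 ± 4.72 FPKM, RAD21 followed at 132 ± 0.838, and NDUFB9 at 72.4 ± 2.54 and ATAD2 at 61.5 ± 0.599 came next. Among all 15823 tested genes, MYC ranked 776 in SK-BR-3 and 156 in SK/EPI.

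**Figure D1:**
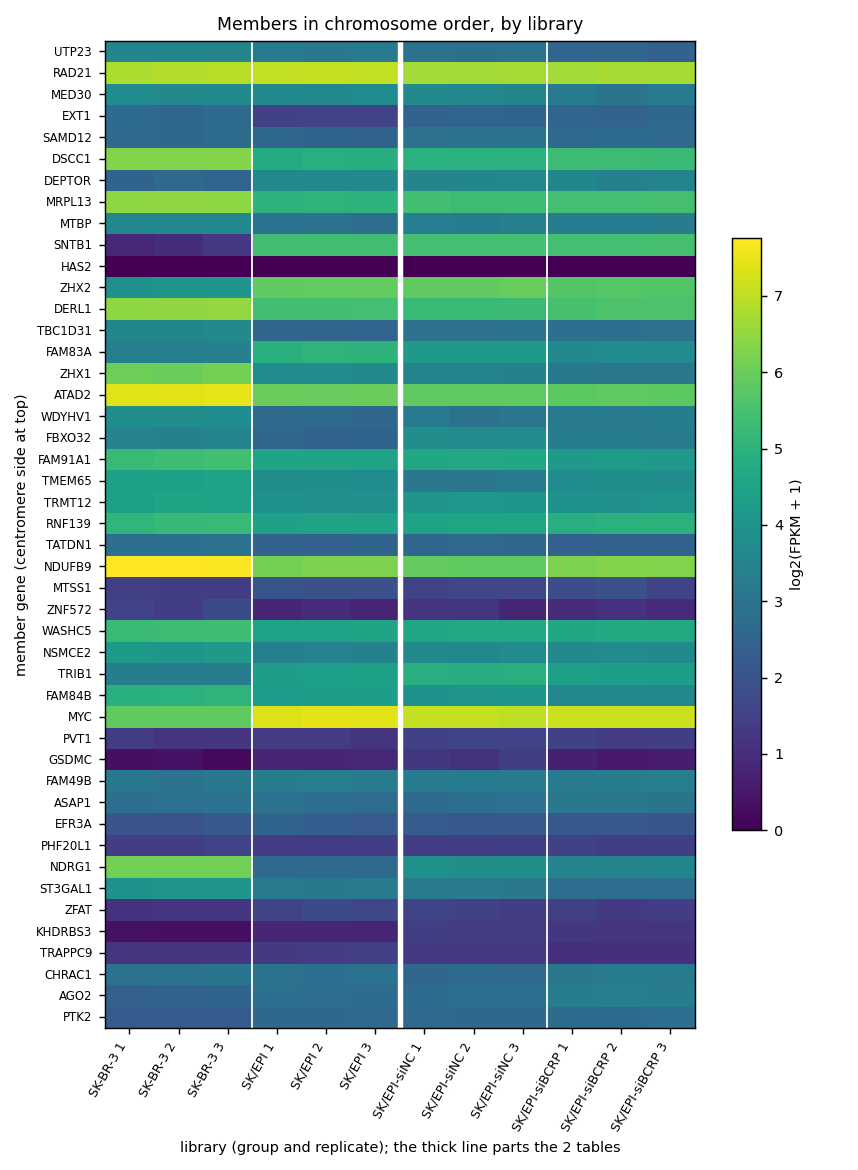
Heat map of log2(FPKM + 1) for the 46 genes (vertical axis, in chromosome order with the centromere side at the top) in the 12 libraries (horizontal axis, 3 for each of the 4 groups). The 3 libraries of a group look alike, HAS2 is dark throughout, and the MYC row is brighter in the 3 SK/EPI libraries (163 to 172 FPKM) than in the 3 SK-BR-3 libraries (57.0 to 57.1 FPKM).

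The first comparison addresses what differs between epirubicin-resistant SK/EPI cells and their parent. Among the 45 tested genes, 16 were upregulated and 24 downregulated in SK/EPI, and 5 were not called. Over all tested genes 74.9% were called, 37.9% upward and 37% downward, so being called was common, and the genes around MYC stood at 35.56% upward and 53.33% downward. A log2 fold change of at least 1 in size was found for 16 of them, 6 upward and 10 downward, where 14.4% of all tested genes passed, 7.87% upward and 6.53% downward. The median log2 fold change was -0.37, against 0.01 over all tested genes, with single genes between -3.40 and 4.32. In 40 of the 45, no SK/EPI library overlapped with an SK-BR-3 library (77.7% of all tested genes). In RNA from whole cultures, fewer cells with a transcript and less of it in each cell cannot be told apart.

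The changes were not evenly spread along the arm. The 4 segments were cut by position, with earlier results of these data known. From UTP23 and RAD21 to SNTB1, 3 of 10 genes rose and 6 fell (median log2 fold change -0.26). From ZHX2 to TRIB1, 15 of 19 fell and 4 rose (median -0.76), the lowest median of the 4 segments. HAS2, which was not tested, stands at the head of this segment. From FAM84B to EFR3A, the segment that holds MYC, 4 of 7 rose and 1 fell (median 0.19). From PHF20L1 to PTK2, 5 of 9 rose and 2 fell (median 0.23). Counting listed genes alone and passing over the other genes between them, the longest run with the same call was 10 falls, from ZHX1 to NDUFB9. In this run the mean FPKM in SK/EPI was 0.189 to 0.726 times that in SK-BR-3. Even within the segment from ZHX2 to TRIB1, however, successive listed genes moved in opposite directions: FAM83A rose and ZHX1, the next listed gene, fell.

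**Figure D2:**
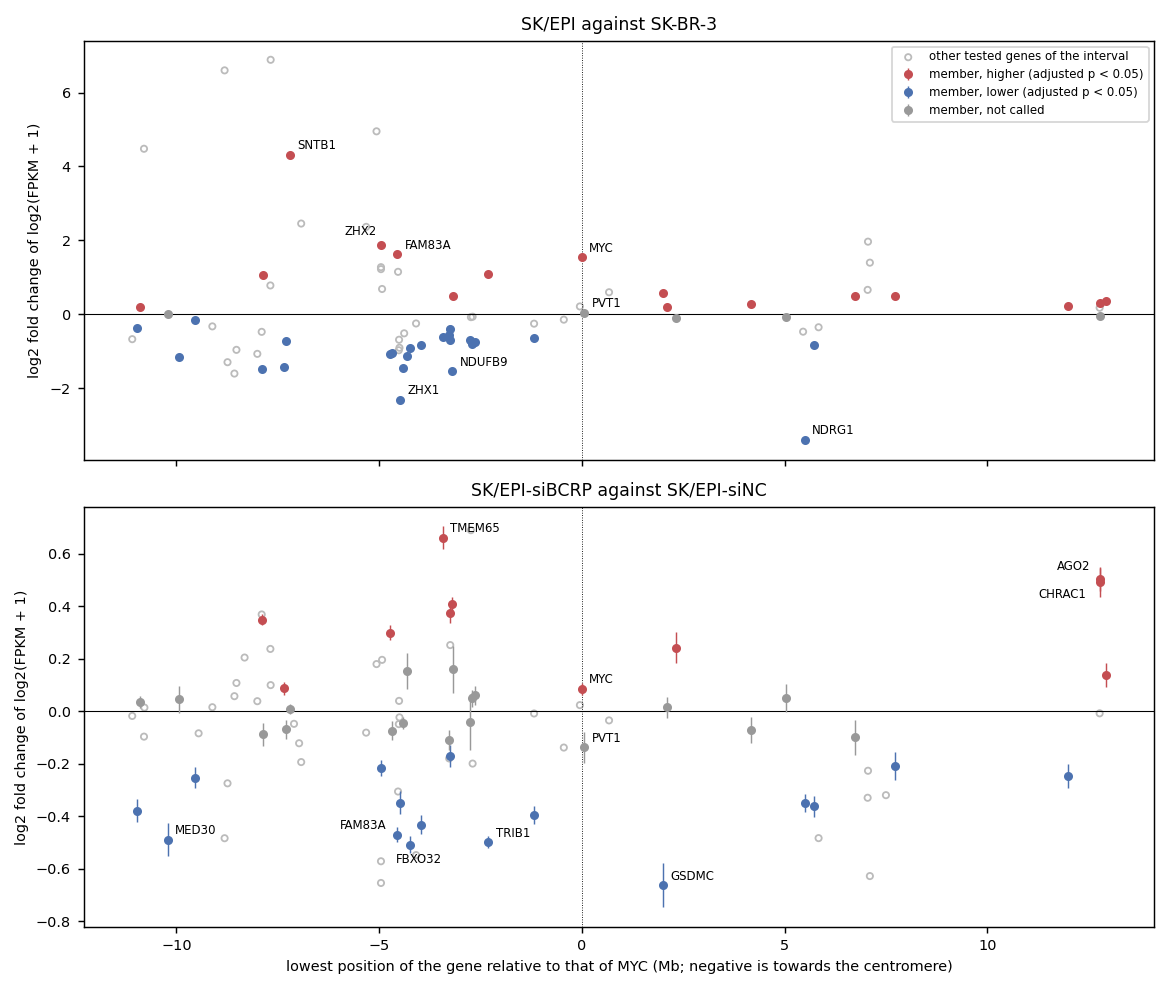
Log2 fold change (vertical axis, with SE bars) of each listed gene ("member" in the key) against the distance of its lowest position from that of MYC in Mb (horizontal axis), in SK/EPI against SK-BR-3 (top) and SK/EPI-siBCRP against SK/EPI-siNC (bottom), with red for higher, blue for lower, grey for not called and open circles for the other tested genes of the interval. In the top panel a band of falls lies on the centromere side of MYC, crossed by SNTB1 (4.32), ZHX2 (1.89) and FAM83A (1.63), and the bottom panel stays between -0.66 and 0.66 for the listed genes.

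The rest of the chromosome gave a frame for these values. Of the 37 other tested genes of the interval, 17 were higher and 16 lower in SK/EPI, and their median log2 fold change was -0.08. Beyond PTK2 towards the telomere, 55 of 91 tested genes rose and 12 fell (median 0.26). Before UTP23 on 8q the median was 0.04 over 188 genes, and on 8p it was 0.15 over 163 genes. Chromosome 8 as a whole stood at 0.12 over 524 genes, the 5th highest median of 23 chromosomes, so the low median of the listed genes was not that of the chromosome. Level also differed: 22 of the listed genes averaged at least 10 FPKM over the 6 libraries, and of these 15 fell and 6 rose (median -0.73), while among all 4551 tested genes at that level 50.91% fell and 33.05% rose (median -0.14). Below 10 FPKM, 9 of 23 listed genes fell and 10 rose (median -0.05), against 31.36% and 39.9% of all tested genes (median 0.05).

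**Figure D3:**
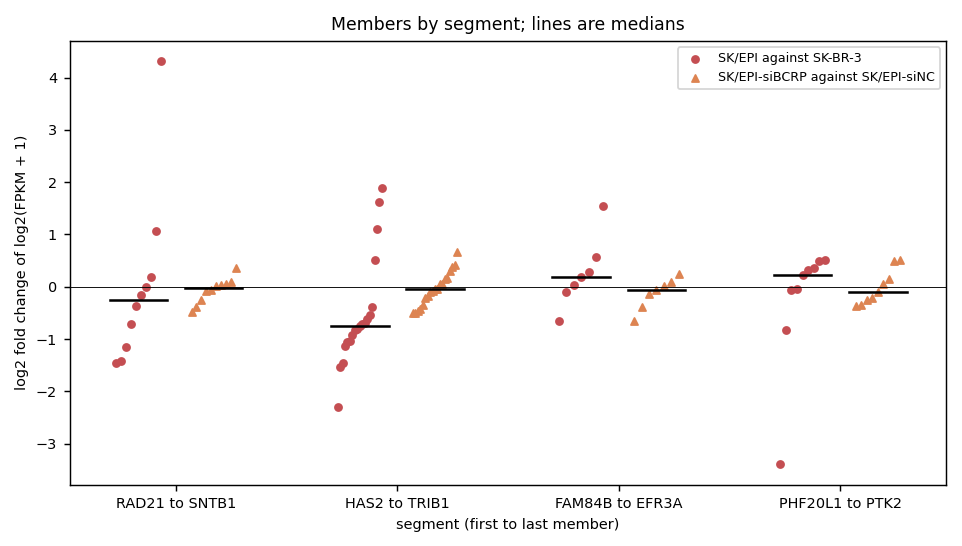
Log2 fold changes (vertical axis) of the listed genes in the 4 segments named by their first and last gene (horizontal axis), with circles for SK/EPI against SK-BR-3, triangles for SK/EPI-siBCRP against SK/EPI-siNC and lines for medians. In SK/EPI against SK-BR-3 the medians were -0.26, -0.76, 0.19 and 0.23 from left to right, and after siBCRP all 4 lay between -0.10 and -0.03.

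Of the genes for transcription factors and regulators, MYC (positions 127735434 to 127741434, plus strand) was upregulated. Its level was 57.1, 57.0 and 57.1 FPKM in the 3 SK-BR-3 libraries and 163, 172 and 170 FPKM in the 3 SK/EPI libraries, a 2.95-fold higher mean. The groups lay far apart, with a log2 fold change of 1.54 (SE 0.032, adjusted p = 5.3e-09). PVT1, which starts on the telomere side of MYC at position 127794533, did not follow it. It stood at 1.55, 1.28 and 1.32 FPKM in SK-BR-3 and at 1.55, 1.57 and 1.24 FPKM in SK/EPI. These values overlapped, and the log2 fold change of 0.04 (SE 0.076, adjusted p = 0.63) rested on 127 to 167 reads per library.

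The zinc finger and homeobox genes ZHX2 and ZHX1, transcriptional regulators of the same family on the centromere side of MYC, moved in opposite directions. ZHX2 was at 13.9, 15.3 and 15.5 FPKM in SK-BR-3 and at 57.0, 58.1 and 58.5 FPKM in SK/EPI (log2 fold change 1.89, SE 0.043, adjusted p = 8.7e-09). ZHX1 was at 65.3, 62.2 and 69.6 FPKM in SK-BR-3 and at 12.7, 12.4 and 12.2 FPKM in SK/EPI (log2 fold change -2.31, SE 0.044, adjusted p = 3.6e-09). The groups did not overlap for either gene, and the pair exchanged places in level between the lines. Of the other transcription genes, the zinc finger gene ZFAT was higher in SK/EPI (1.25 ± 0.0602 to 2.19 ± 0.170 FPKM, log2 fold change 0.51), ZNF572 was lower (1.98 ± 0.346 to 0.832 ± 0.143 FPKM, -0.70), and the Mediator subunit gene MED30 was at 12.1 FPKM in both (adjusted p = 0.94).

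Of 7 genes of genome maintenance and chromatin, 4 were lower and 1 was higher in SK/EPI. Among all listed genes 53.33% were lower, and among all tested genes 37% (50.91% of those of at least 10 FPKM). The counts of this and the other small groups below are to be read beside these shares. DSCC1, which helps to load the replication clamp and to establish cohesion, was at 77.9, 76.4 and 78.0 FPKM in SK-BR-3 and at 26.3, 28.6 and 27.2 FPKM in SK/EPI (log2 fold change -1.47, SE 0.037, adjusted p = 1.4e-08). ATAD2 was at 165, 170 and 177 FPKM and fell to 61.9, 60.9 and 61.8 FPKM (log2 fold change -1.46, SE 0.035, adjusted p = 1.1e-08). Both genes were about as much lower as each other, with no overlap between the lines. MTBP, a factor of replication origin firing, was lower as well (11.3 ± 0.234 to 6.42 ± 0.354 FPKM, log2 fold change -0.72), as was NSMCE2, the SUMO ligase of the SMC5/6 complex (16.8 ± 0.659 to 9.55 ± 0.263 FPKM, -0.76). RAD21 was the gene of this group that rose, by 0.19 on the log2 scale (SE 0.038, adjusted p = 0.0021). Its levels were 110, 116 and 120 FPKM in SK-BR-3 and 131, 132 and 132 FPKM in SK/EPI, so the libraries did not overlap although the change was small. RAD21 and UTP23 lie on opposite strands and share 8.37% of the exonic bases of RAD21, and the strand setting of the counting is not given in the sources used here. The chromatin reader gene PHF20L1 and the nucleosome remodelling subunit gene CHRAC1 were not called.

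All 3 genes of mitochondrial proteins were downregulated, against 53.33% of all listed genes and 50.91% of all tested genes of at least 10 FPKM. NDUFB9 was at 215, 213 and 210 FPKM in SK-BR-3 and at 69.4, 74.0 and 73.7 FPKM in SK/EPI, so it remained abundant while its mean was 2.94 times lower (log2 fold change -1.54, SE 0.036, adjusted p = 9.1e-09). Of its exonic bases, 16.5% are shared with MTSS1 on the opposite strand, which stood at 1.73 and 2.87 FPKM in the 2 lines. MRPL13, a protein of the large mitochondrial ribosomal subunit, was at 86.1, 86.8 and 85.7 FPKM in SK-BR-3 and at 31.4, 32.2 and 31.6 FPKM in SK/EPI (log2 fold change -1.41, SE 0.027, adjusted p = 4e-09). TMEM65, an inner membrane protein, fell from 20.7 ± 0.751 to 13.2 ± 0.426 FPKM (log2 fold change -0.61). The libraries of the 2 lines did not overlap for any of these 3 genes.

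A group of 5 genes is linked to ubiquitin, the N-end rule and quality control of the endoplasmic reticulum (ER). In SK/EPI 4 of them were lower and 1 was higher, against 53.33% and 35.56% of all listed genes. WDYHV1, the amidase that acts on amino-terminal glutamine, was at 13, 13.1 and 12.6 FPKM in SK-BR-3 and at 5.4, 5.58 and 5.09 FPKM in SK/EPI (log2 fold change -1.13, SE 0.044, adjusted p = 1.5e-07). DERL1, a channel component of ER-associated degradation, fell from 88.2 ± 1.86 to 41.7 ± 0.821 FPKM (-1.06), FBXO32, the F-box protein atrogin-1, from 9.80 ± 0.303 to 4.72 ± 0.145 FPKM (-0.92), and RNF139, an ER ubiquitin ligase, from 35.2 ± 1.82 to 21.2 ± 0.714 FPKM (-0.70). TRIB1, a pseudokinase that guides a ubiquitin ligase to its substrates, went the other way. It was at 8.85, 8.5 and 8.55 FPKM in SK-BR-3 and at 18.8, 19.9 and 20.2 FPKM in SK/EPI (log2 fold change 1.10, SE 0.039, adjusted p = 9e-08). None of these 5 genes had overlapping libraries between the lines.

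Among the signalling genes, the largest fall of all listed genes was that of NDRG1, a gene induced by hypoxia and stress that lies on the telomere side of MYC (positions 133237171 to 133302022, minus strand). It was at 68.5, 67.5 and 68.0 FPKM in SK-BR-3 and at 5.5, 5.71 and 5.44 FPKM in SK/EPI. The mean was 12.3 times lower (log2 fold change -3.40, SE 0.031, adjusted p = 1.1e-10), far outside the spread between libraries. The other 3 signalling genes were upregulated. FAM83A, a gene tied to epidermal growth factor receptor signalling, was at 9.18, 9.25 and 9.50 FPKM in SK-BR-3 and at 29.2, 31.9 and 31.5 FPKM in SK/EPI (log2 fold change 1.63, SE 0.041, adjusted p = 1.4e-08). DEPTOR, an inhibitor bound to the mTOR kinase, was at 4.71, 5.45 and 4.79 FPKM and at 11.4, 11.4 and 11.9 FPKM (log2 fold change 1.07, SE 0.056, adjusted p = 8.4e-07). PTK2, which encodes focal adhesion kinase and ends the listed interval, rose less, from 3.81 ± 0.0232 to 5.16 ± 0.102 FPKM (log2 fold change 0.36).

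The largest rise was that of SNTB1 (positions 120535745 to 120813273, minus strand), which encodes beta-1 syntrophin, an adaptor of the dystrophin complex. It was at 0.853, 1.03 and 1.43 FPKM in SK-BR-3, from 93 to 187 reads per library, and at 40.5, 41.6 and 40.3 FPKM in SK/EPI. The mean was 36.9-fold higher in SK/EPI (log2 fold change 4.32, SE 0.091, adjusted p = 5.9e-09). In rank among the listed genes it moved from 43 to 7. Of the other 7 genes of membrane, cytoskeleton and traffic, 4 rose and 2 fell. The risers were MTSS1, a membrane-curving actin regulator (0.50), EFR3A, a plasma membrane anchor of a lipid kinase (0.28), TRAPPC9, a vesicle tethering subunit (0.23), and FAM49B (0.19), as log2 fold changes, and the call of FAM49B (adjusted p = 0.030) was lost in 5 of the 14 alternatives. FAM91A1, a Golgi trafficking protein, fell by 0.83 and WASHC5, a subunit of the endosomal WASH complex, fell by 0.81 on the log2 scale, and ASAP1 was not called.

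The matrix and glycosylation genes that could be tested were both lower in SK/EPI. EXT1, a heparan sulfate polymerase, was at 5.57, 5.12 and 5.61 FPKM in SK-BR-3 and at 1.80, 1.93 and 1.94 FPKM in SK/EPI, 2.88 times lower in the mean (log2 fold change -1.16, SE 0.056, adjusted p = 5.5e-07). ST3GAL1, a sialyltransferase, fell from 15.3 ± 0.525 to 8.14 ± 0.273 FPKM (log2 fold change -0.83). RNA genes were divided, with UTP23, a factor of ribosome assembly (-0.37), and TRMT12, a tRNA-modifying enzyme (-0.55), lower and AGO2, the slicing Argonaute (0.32), and KHDRBS3, a splicing regulator (0.50), higher. KHDRBS3 was low, at 0.254 FPKM in SK-BR-3 (36 to 40 reads per library) and 0.771 FPKM in SK/EPI, a 3.04-fold higher mean.

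GSDMC, a pore-forming gasdermin, was at 0.236, 0.302 and 0.125 FPKM in SK-BR-3, from 7 to 16 reads per library, and at 0.800, 0.773 and 0.873 FPKM in SK/EPI. This was 3.69-fold higher in the mean but 0.57 on the log2(FPKM + 1) scale (SE 0.061, adjusted p = 5.9e-05). The 4 remaining genes, SAMD12, TBC1D31, TATDN1 and FAM84B, were called lower, by 0.16 to 1.04 on the log2 scale. The call of SAMD12 (adjusted p = 0.032), the smallest of these changes, was lost in 9 of the 14 alternatives, with adjusted p up to 0.17. FAM84B shares 21.5% of its exonic bases with PCAT1 on the opposite strand.

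The listed genes hold 5 head-to-head pairs, in which a minus-strand and a plus-strand gene start within 1000 bp of each other. They are MRPL13 with MTBP (2 bp apart in the annotation), NSMCE2 with WASHC5 (161 bp), NDUFB9 with TATDN1 (357 bp), ATAD2 with WDYHV1 (375 bp) and DERL1 with TBC1D31 (455 bp). All 10 genes of these pairs were lower in SK/EPI than in SK-BR-3, against 53.33% of the listed genes and 37% of all tested genes. All but MRPL13 and MTBP lie in the segment from ZHX2 to TRIB1, where 15 of 19 genes fell. The fall was of like size within DERL1 and TBC1D31 (-1.06 and -1.04) and within WASHC5 and NSMCE2 (-0.81 and -0.76), and of unlike size within NDUFB9 and TATDN1 (-1.54 and -0.39) and within MRPL13 and MTBP (-1.41 and -0.72), on the log2 scale. After siBCRP, NDUFB9 rose by 0.41 and TATDN1 fell by 0.17, DERL1 rose by 0.30 and TBC1D31 was not called, and MRPL13 was called (0.09) while MTBP was not. Neither gene was called in the pairs WASHC5 with NSMCE2 (0.05 and 0.06) and ATAD2 with WDYHV1 (-0.05 and 0.15). The calls of TATDN1 and MRPL13 did not hold under all alternatives. Some partners share exonic bases on opposite strands: 5.59% of DERL1 with TBC1D31, 5.42% of NSMCE2 with WASHC5 and 0.0713% of MRPL13 with MTBP. The part of this sharing in the values was not tested.

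**Figure D4:**
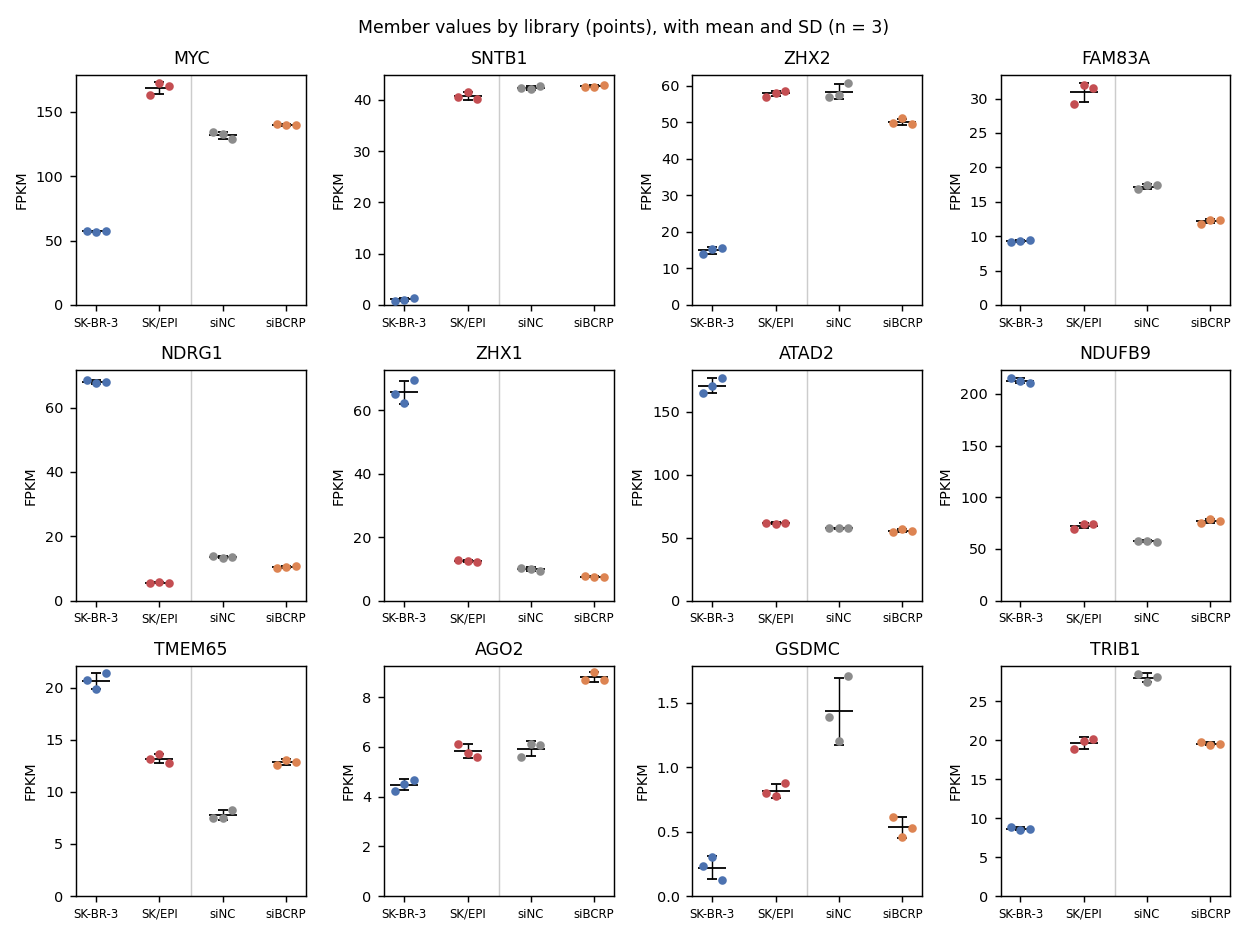
FPKM (vertical axes, each starting at 0) of 12 of the listed genes in each library of the 4 groups (horizontal axes), with points for libraries and bars for mean and SD of 3. MYC, SNTB1, ZHX2 and FAM83A are higher and NDRG1, ZHX1, ATAD2 and NDUFB9 lower in SK/EPI than in SK-BR-3, whereas the SK/EPI-siNC and SK/EPI-siBCRP points lie closer together, with the clearest gaps for TMEM65, AGO2, GSDMC and TRIB1.

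The second comparison asks what differs in the resistant cells after a short knockdown of BCRP by siRNA. The labels do not name the siRNA sequence. Effects of lower ABCG2 and other effects of the siRNA cannot be told apart here. Of the 45 tested genes, 11 were higher and 16 lower in SK/EPI-siBCRP than in SK/EPI-siNC, and 18 were not called. Over all 16298 tested genes, 38.1% were called, 19.4% upward and 18.7% downward. With each library scaled to the same sum the split turned to 8 higher and 18 lower among the listed genes, and from 3163 higher and 3052 lower to 2681 higher and 3561 lower among all genes. No listed gene reached a log2 fold change of 1 in size, which 0.411% of all tested genes did (0.0675% upward and 0.344% downward). On other scales GSDMC did, at -1.27 with a pseudocount of 0.1 and at -1.43 with limma voom, where 1.46% and 2.72% of all tested genes passed. In 32 of the 45 the libraries of the 2 groups did not overlap (50.9% of all tested genes). The median log2 fold change was -0.07, against 0.00 over all tested genes. At a mean of at least 10 FPKM, 7 of 21 listed genes were higher and 7 lower, against 36.29% and 23.24% of all tested genes. Below that level, 4 of 24 were higher and 9 lower, against 12.97% and 17.01%.

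No segment of the arm stood out after siBCRP. The medians were -0.03 from UTP23 to SNTB1, -0.05 from ZHX2 to TRIB1, -0.07 from FAM84B to EFR3A and -0.10 from PHF20L1 to PTK2, and each segment held both higher and lower genes. The last 3 genes towards the telomere, CHRAC1, AGO2 and PTK2, were called higher, but the call of PTK2 (log2 fold change 0.14, adjusted p = 0.046) was lost in 9 of the 14 alternatives, with adjusted p up to 0.13. CHRAC1 and AGO2 are neighbours, at positions 140511298 and 140520156, and were about equally raised.

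MYC changed little after siBCRP. It was at 134, 132 and 129 FPKM in SK/EPI-siNC and at 141, 140 and 140 FPKM in SK/EPI-siBCRP. The groups did not overlap, and the 1.06-fold higher mean was called (log2 fold change 0.086, SE 0.022, adjusted p = 0.02), but the call was lost with libraries scaled to equal sums (0.053, adjusted p = 0.085). It was also lost without a filter on low genes (adjusted p = 0.050), and without SK/EPI-siBCRP library 2 (0.054), SK/EPI-siNC library 2 (0.053) or SK/EPI-siNC library 3 (0.061), each as an adjusted p. PVT1 was at 1.91, 2.05 and 1.94 FPKM in SK/EPI-siNC and at 1.83, 1.57 and 1.69 FPKM in SK/EPI-siBCRP, which did not pass the test (log2 fold change -0.14, SE 0.058, adjusted p = 0.10).

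The largest rise after siBCRP was in a mitochondrial gene, TMEM65. It was at 7.52, 7.49 and 8.30 FPKM in SK/EPI-siNC and at 12.6, 13.1 and 12.9 FPKM in SK/EPI-siBCRP (log2 fold change 0.66, SE 0.043, adjusted p = 3.9e-05). NDUFB9 was at 58.1, 57.8 and 56.4 FPKM and at 74.6, 78.5 and 76.7 FPKM in the same order (log2 fold change 0.41, SE 0.025, adjusted p = 3e-05). Both were clear of the control libraries. MRPL13 was called with a smaller change (log2 fold change 0.09, adjusted p = 0.032), and this call was lost in 7 of the 14 alternatives, with adjusted p up to 0.10.

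Of the other genes that rose, AGO2 was at 5.58, 6.13 and 6.07 FPKM in SK/EPI-siNC and at 8.69, 9.03 and 8.70 FPKM in SK/EPI-siBCRP (log2 fold change 0.50, SE 0.043, adjusted p = 0.00013). AGO2 encodes the protein through which siRNAs act, and both groups received an siRNA. CHRAC1 was at 4.89, 5.62 and 5.46 FPKM and at 7.42, 8.08 and 8.16 FPKM (log2 fold change 0.49, SE 0.058, adjusted p = 0.00059). DSCC1 was at 30.1, 29.7 and 30.1 FPKM and at 38.7, 38.9 and 37.7 FPKM (log2 fold change 0.35, SE 0.022, adjusted p = 3.2e-05). For these 3 genes every siBCRP library was above every control library. Both ER genes rose, RNF139 from 22.6 ± 0.824 to 29.6 ± 1.08 FPKM (0.37) and DERL1 from 37.5 ± 0.267 to 46.4 ± 1.54 FPKM (0.30). The Arf regulator gene ASAP1 rose from 6.11 ± 0.442 to 7.41 ± 0.397 FPKM (0.24, adjusted p = 0.015), a call that was lost without SK/EPI-siBCRP library 1 (adjusted p = 0.051) or library 2 (0.053).

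The largest fall after siBCRP was that of GSDMC. It was at 1.39, 1.20 and 1.71 FPKM in SK/EPI-siNC and at 0.613, 0.454 and 0.529 FPKM in SK/EPI-siBCRP, from 30 to 35 reads per library in the latter. The mean was 2.69 times lower (log2 fold change -0.66, SE 0.084, adjusted p = 0.00088), and the control libraries varied more than for most listed genes.

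TRIB1 was at 28.5, 27.5 and 28.1 FPKM in SK/EPI-siNC and at 19.8, 19.3 and 19.5 FPKM in SK/EPI-siBCRP (log2 fold change -0.50, SE 0.024, adjusted p = 1.2e-05). FBXO32 was at 12.9, 12.4 and 12.6 FPKM and at 8.48, 8.79 and 8.46 FPKM (log2 fold change -0.51, SE 0.031, adjusted p = 3e-05). Of the 5 genes of this role, 2 thus fell and 2 rose, and WDYHV1 was not called. MED30 was at 11.8, 11.2 and 10.9 FPKM and at 8.10, 6.94 and 8.26 FPKM (log2 fold change -0.49, SE 0.063, adjusted p = 0.00091). FAM83A was at 16.8, 17.4 and 17.5 FPKM and at 11.8, 12.3 and 12.3 FPKM (log2 fold change -0.47, SE 0.029, adjusted p = 3.3e-05). FAM91A1 was at 23.6, 24.6 and 23.8 FPKM and at 17.2, 18.5 and 17 FPKM (log2 fold change -0.43, SE 0.036, adjusted p = 0.00012). For GSDMC, TRIB1, FBXO32, MED30, FAM83A and FAM91A1 the groups did not overlap. FAM84B (-0.39) and UTP23 (-0.38) completed the 8 largest falls, and ZHX2, NDRG1, ZHX1 and ST3GAL1 fell by 0.22, 0.35, 0.35 and 0.36 on the log2 scale.

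Some of the genes with large differences between SK/EPI and SK-BR-3 were not called after siBCRP. SNTB1 was at 42.3 ± 0.299 FPKM in SK/EPI-siNC and at 42.7 ± 0.188 FPKM in SK/EPI-siBCRP (log2 fold change 0.01, SE 0.019, adjusted p = 0.70). ATAD2 (57.3 ± 0.103 and 55.5 ± 1.35 FPKM, log2 fold change -0.05) and DEPTOR (10.9 ± 0.273 and 10.2 ± 0.599 FPKM, -0.09) were not called either. RAD21, at 102 ± 0.572 and 105 ± 2.08 FPKM, was not called (0.04). The other genes that did not pass the test were EXT1, MTBP, TBC1D31, WDYHV1, TRMT12, MTSS1, ZNF572, WASHC5, NSMCE2, FAM49B, EFR3A, PHF20L1 and ZFAT, with log2 fold changes between -0.11 (TRMT12) and 0.16 (MTSS1).

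Set side by side, 24 genes (53.33%) were called in both comparisons, which share no library, against 32.29% of the 15152 genes tested in both. The listed genes were also called more often in each comparison alone (88.89% against 74.9%, and 60% against 38.1%). Opposite calls were found for 12 of the 24 and, among all genes, for 2579 of the 4892 called in both. These are 26.67% and 17.02% of the genes tested in both. Of the 24 genes, 9 were lower in both (UTP23, SAMD12, ZHX1, FBXO32, FAM91A1, TATDN1, FAM84B, NDRG1 and ST3GAL1). A further 3 were higher in both (MYC, AGO2 and PTK2). Another 6 were lower in SK/EPI and higher after siBCRP (DSCC1, MRPL13, DERL1, TMEM65, RNF139 and NDUFB9), and 6 were higher in SK/EPI and lower after siBCRP (ZHX2, FAM83A, TRIB1, GSDMC, KHDRBS3 and TRAPPC9). The calls after siBCRP are against SK/EPI-siNC and not against SK/EPI without siRNA, whose levels are given below. Of the 24, SAMD12 lost its call in at least 1 alternative in the first comparison, where GSDMC went untested in 1, and MYC, PTK2, MRPL13, TATDN1, KHDRBS3 and TRAPPC9 lost theirs after siBCRP. AGO2 alone of the 3 genes higher in both kept both calls in all 14 alternatives. Across the 45 genes the log2 fold changes of the 2 comparisons had a Pearson correlation of -0.07 and a Spearman correlation of -0.16, given as a description, since neighbouring genes are not independent.

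**Figure D5:**
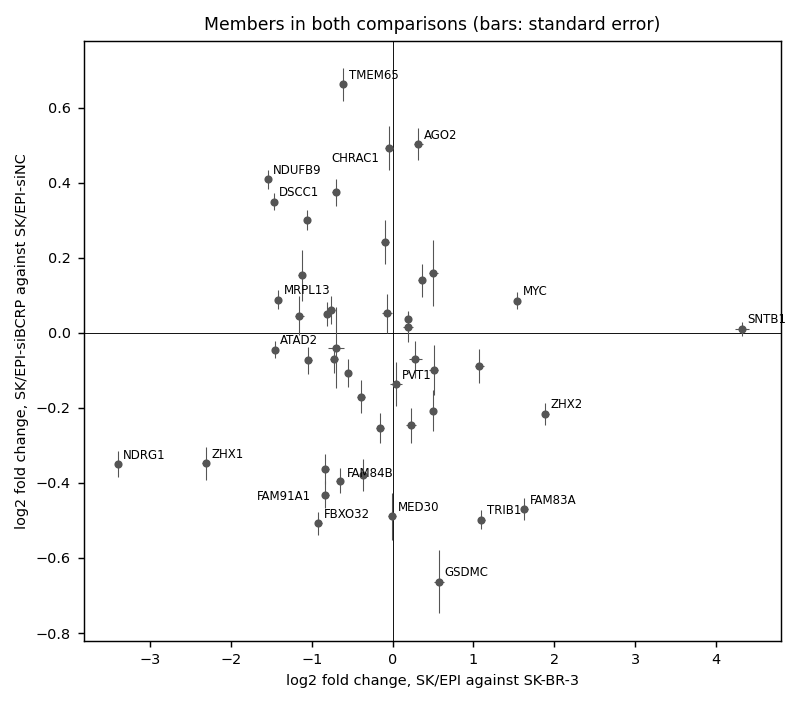
Log2 fold change of each of the 45 tested genes in SK/EPI against SK-BR-3 (horizontal axis) and in SK/EPI-siBCRP against SK/EPI-siNC (vertical axis, a narrower range), with SE bars. The points fill all 4 quadrants, and the extremes of the horizontal axis, NDRG1 (-3.40) and SNTB1 (4.32), lie at -0.35 and 0.01 on the vertical axis.

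Levels in SK/EPI-siNC can be set beside those in SK/EPI without siRNA. These groups are in different tables, possibly with different normalization, so the levels carry no test. MYC was at 168 FPKM in SK/EPI and 132 in SK/EPI-siNC, and FAM83A at 30.9 and 17.2. EXT1 was at 1.89 and 4.62, FBXO32 at 4.72 and 12.6, NDRG1 at 5.55 and 13.5, and TMEM65 at 13.2 and 7.77 FPKM. SNTB1 (40.8 and 42.3) and ZHX2 (57.9 and 58.3) stood close. Genes with opposite calls follow, in SK/EPI, SK/EPI-siNC and SK/EPI-siBCRP, again with no test. DSCC1 had 27.4, 30.0 and 38.5 FPKM, MRPL13 31.7, 40.0 and 42.5, and DERL1 41.7, 37.5 and 46.4. TMEM65 had 13.2, 7.77 and 12.9, RNF139 21.2, 22.6 and 29.6, and NDUFB9 72.4, 57.4 and 76.6. ZHX2 had 57.9, 58.3 and 50.1, FAM83A 30.9, 17.2 and 12.2, and TRIB1 19.6, 28.0 and 19.6. GSDMC had 0.816, 1.43 and 0.532, KHDRBS3 0.771, 1.65 and 1.30, and TRAPPC9 1.63, 1.48 and 1.09.

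The partners and targets of MYC were described from lists. MYC network genes, which encode its partner MAX, the MXD repressors and related factors, were upregulated in SK/EPI in 10 of 14 tested cases and downregulated in 4 (median log2 fold change 0.41), where 37.9% and 37% of all tested genes were so called. The largest changes were those of the repressors MXD1 (1.80) and MXD3 (-1.02), of the MYC paralogue MYCL (0.81) and of MXI1 (0.77). Textbook MYC targets were divided, with 12 of 27 higher and 9 lower (median 0.04): the nucleotide synthesis gene CAD (0.99), CDK4 (0.60) and the ribosome assembly gene RRS1 (0.59) were higher, and the glycolytic gene LDHA (-1.37) was lower. After siBCRP, 16 of 27 targets were higher and 2 lower (median 0.11), where 19.4% and 18.7% of all tested genes and 36.29% and 23.24% of those of at least 10 FPKM were so called, led by the transferrin receptor gene TFRC (0.74) and the polyamine synthesis gene ODC1 (0.45), with NOLC1 at 0.32 and LDHA at -0.24. Of 15 network genes, 3 were higher and 4 lower after siBCRP (median 0.00), among them MXD4 (-0.65), MXD3 (-0.43), FBXW7 (-0.38) and MLXIPL (0.36).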

How the data were processed

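RNA-seq values of 12 libraries (4 groups of 3) were used. The authors deposited FPKM per gene in 2 tables. Per the submitters' processing notes, HISAT2 2.0.5, featureCounts 1.5.0-p3 and DESeq2 1.16.1 were used with build hg38. The strand setting is not given in the sources used here. Of the listed genes, 23 share no exonic base with another gene, 21 share under 15% and 2 share 15% or more. Among the 21 were the risers SNTB1 (10.7%), ZFAT (10.3%), DEPTOR (9.61%) and FAM83A (9.07%). The part of this sharing in the values was not tested. Symbols, positions and exon lengths came from GENCODE 29. With these lengths the deposited FPKM gave whole reads (tolerance 0.01) for 100% of genes above 0, and the recovered reads served for the filter (3 or more libraries with the equivalent of 10 reads in a library of median size, and 15 reads summed over libraries) and for depth. Reads on genes made up 89.5 to 101% of the total that the authors' scaling implies.

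Groups came from the sample titles. Each table was fitted alone with limma 3.58.1 (R 4.3.3, trended eBayes) on log2(FPKM + 1), with the Benjamini-Hochberg adjustment over 15823 and 16298 genes. The script was tested on simulated data. Described in full were MYC, PVT1 and in each comparison, the 8 called genes that rose most and the 8 that fell most. Of each list, and of other genes of the interval, up to 4 called genes with the largest changes were named. The listed genes, segments and gene lists were chosen with earlier results of these data known. Lists were described by counts and medians, with no set test. Replicates differed by more than sampling noise (chi-square per degree of freedom 1.66 to 4.47 over 12 pairs). Alternatives were a replicate block, another pseudocount, 2 other filters, 3 other scalings, voom, and leaving out each library. Summed levels of markers were compared between groups.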

Additional observations from a re-analysis of the deposited data

How the results depend on the processing

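In SK/EPI against SK-BR-3, the calls of 37 of the 40 called genes held under all 14 alternatives, and MYC stayed called throughout. The exceptions were SAMD12 and FAM49B, and GSDMC, which the stricter filter left untested. Leaving out each library in turn gave 38 to 39 called genes (15 to 16 higher, 23 to 24 lower), log2 fold changes of 1.53 to 1.57 for MYC and medians of -0.38 to -0.35. The median was -0.40 with a pseudocount of 0.1, -0.31 scaled without the mitochondrial chromosome and -0.32 with limma voom on recovered reads, which called 12128 genes and moved the median of all genes to 0.10, so that the listed genes stood -0.42 from it.

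After siBCRP, 20 of 27 calls held under all 14 alternatives; MYC, MRPL13, TATDN1, ASAP1, KHDRBS3, TRAPPC9 and PTK2 lost theirs in at least 1. Without a filter, 8 listed genes were higher and 14 lower, MYC was at 0.0858 (adjusted p = 0.050) and the median was -0.0573. With equal sums MYC was at 0.0532 (adjusted p = 0.085) and the median at -0.0956. The median was -0.0855 without the mitochondrial chromosome and -0.0888 with voom, which called 7043 genes. Leaving out each library gave 21 to 27 called genes (7 to 12 higher, 14 to 16 lower), 0.0694 to 0.0991 for MYC and medians of -0.078 to -0.0439. The 7 higher genes came without SK/EPI-siBCRP library 2.

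Libraries with the same replicate number deviated together little (correlations -0.0485 to -0.00201 in the first comparison and 0.00923 to 0.0551 in the second). With 3 libraries per group this cannot exclude that the number pairs them. A fit with the number as a replicate block called 15 genes higher and 23 lower in SK/EPI, and 10 higher and 16 lower after siBCRP. No called gene was reversed under the 14 alternatives. Genes that were not called changed sign in some, MED30 in 4 and CHRAC1 in 2 in SK/EPI, and SNTB1 in 3 (-0.02 to 0.02), ZNF572 in 2 and FAM49B in 4 after siBCRP. Called changes of at least 1 in size rose from 2278 to 4214 genes (pseudocount 0.1) or 4726 (voom) in SK/EPI, with 16, 20 and 18 listed genes, and from 67 to 238 or 443 after siBCRP. The cause of these moves was not tested. Depth limits GSDMC in SK-BR-3 (7 to 16 reads) and gives no value for HAS2.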

Other observations

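Some of the largest changes between the lines inside the interval were in genes outside the list. COL14A1, a fibril-associated collagen that lies between listed genes of the segment up to SNTB1, was at 0.0188 FPKM in SK-BR-3 (0 to 5 reads per library) and at 119 FPKM in SK/EPI (log2 fold change 6.88). TNFRSF11B, which encodes the decoy receptor osteoprotegerin, was at 0.323 and 127 FPKM (6.6). AARD was at 0.384 and 29.9 FPKM (4.48). The non-coding gene LINC01151 had 0 reads in the 3 SK-BR-3 libraries and 29.9 FPKM in SK/EPI, at least 100.1-fold higher when 3 reads per library are taken as the floor. After siBCRP, SQLE, an enzyme of cholesterol synthesis, rose from 29.4 to 48.1 FPKM (log2 fold change 0.69), and AC016405.2 (-0.65), NCRNA00250 (-0.63) and AC016405.3 (-0.57) fell. Of the other tested genes of the interval, 3 of 41 were higher and 11 lower after siBCRP, where 19.4% and 18.7% of all tested genes were so called.

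Partners and factors linked to 4 listed genes were described from lists as well, to be read against the 37.9% higher and 37% lower of all tested genes in SK/EPI and the 19.4% and 18.7% after siBCRP. Of 14 genes of cohesin, its regulators and the establishment of cohesion, listed for RAD21, 9 were higher and 5 lower in SK/EPI (median log2 fold change 0.21). Changed most were ESCO2 (-0.65), PDS5B (-0.58), CHTF18 (0.57) and MAU2 (0.55). After siBCRP, 2 of the 14 were higher and 2 lower (median -0.01), and these were CHTF8 (-0.32), NIPBL (-0.18), ESCO2 (0.17) and ESCO1 (0.14). Of 9 genes of the mTOR complexes that DEPTOR binds, 5 were higher and 3 lower in SK/EPI (median 0.25), led by MAPKAP1 (-0.78) and TTI1 (0.53), and 5 were higher and 1 lower after siBCRP (median 0.15), led by AKT1S1 (0.30). Of 9 focal adhesion partners of PTK2, 5 were higher and 1 lower in SK/EPI (median 0.25), among them PTK2B (2.12), SRC (1.06), BCAR1 (0.53) and VCL (-0.32), and 3 were higher and 3 lower after siBCRP (median -0.04), led by TLN1 (0.36). Of 9 RNA silencing partners of AGO2, 2 were higher and 4 lower in SK/EPI (median -0.12), among them AGO4 (-0.77) and DICER1 (0.56). After siBCRP 3 were higher and 3 lower (median 0.01), with TARBP2 at 0.64 and DICER1 at -0.61.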
